A study of Homo sapiens with 4 samples.

Results

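The transcripts described here are the microRNA genes that received late numbers in the human catalogue, taken as every feature of the array annotated with exactly 1 gene symbol made of MIR and a number above 500, host gene symbols ending in HG left out. The rule found 237 features of 234 genes among the 13493 features of the table, which cover chromosomes 1 to 5 only. Another 40 features named such a microRNA together with other genes and were left out by the rule. The members nearest the bound were the 17 features of the MIR548 family, with changes from -0.71 to 0.36 on the log2 scale. On the other side of the bound the nearest was MIR488, which read 5.85 and 6.36 in DMSO and 5.01 and 5.02 in TCDD.

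SK-N-SH cells, an established human neuroblastoma line, were exposed for 24 h to TCDD at 1e-10 M or to its solvent DMSO, which all cultures received. TCDD is a dioxin that activates the aryl hydrocarbon receptor, a ligand-dependent transcription factor. Total RNA of 2 TCDD and 2 DMSO samples was hybridised to 1 Affymetrix transcriptome array each, and the question addressed is which of the microRNA features differed between the groups. The titles call the samples of a group biological replicates, but no label says that they came from separate cultures, so every p-value measures the spread between these arrays, and 1 line with 4 arrays limits the precision of all values.

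MicroRNAs are short RNAs cut from a hairpin within a longer primary transcript, first by DROSHA in the nucleus and then by DICER1 in the cytoplasm. The mature strand is loaded into an Argonaute protein and pairs with target messenger RNAs mainly through its seed, bases 2 to 8, which lowers their translation and stability. Numbers were given in order of discovery, so high numbers mark genes that were mostly found later by deep sequencing, and many lie inside other genes, from whose transcripts they can be processed. The labels do not say which form of a microRNA the probes of this array detect. Signal of the mature strand, of the hairpin and of the surrounding transcript cannot be told apart here, and the signals of different features are not set against each other as amounts of RNA.

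The mature sequences of the 16 genes with the largest called changes are shown first because the results turn on them. They are taken from RefSeq with GRCh38.p14 positions, 5′ to 3′, with the seed in capitals. The genes of the 8 largest rises come first.
hsa-miR-4434: aGGAGAAGuaaaguagaa, chr2:64525520-64525537, plus strand
hsa-miR-3684: uUAGACCUaguacacguccuu, chr4:98997434-98997454, plus strand
hsa-miR-3115: aUAUGGGUuuacuaguuggu, chr1:23044310-23044329, plus strand
hsa-miR-3140-5p: aCCUGAAUuaccaaaagcuuu, chr4:152489385-152489405, minus strand
hsa-miR-3140-3p: aGCUUUUGggaauucagguagu, chr4:152489336-152489357, minus strand
hsa-miR-3682-5p: cUACUUCUaccuguguuaucau, chr2:53849170-53849191, minus strand
hsa-miR-3682-3p: uGAUGAUAcagguggagguag, chr2:53849136-53849156, minus strand
hsa-miR-553: aAAACGGUgagauuuuguuuu, chr1:100281256-100281276, plus strand
hsa-miR-3671: aUCAAAUAaggacuagucugca, chr1:65057762-65057783, minus strand
hsa-miR-4684-5p: cUCUCUACugacuugcaacaua, chr1:22719530-22719551, plus strand
hsa-miR-4684-3p: uGUUGCAAgucgguggagacgu, chr1:22719566-22719587, plus strand
The genes of the 8 largest falls follow.
hsa-miR-561-5p: aUCAAGGAucuuaaacuuugcc, chr2:188297517-188297538, plus strand
hsa-miR-561-3p: cAAAGUUUaagauccuugaagu, chr2:188297552-188297573, plus strand
hsa-miR-578: cUUCUUGUgcucuaggauugu, chr4:165386302-165386322, plus strand
hsa-miR-4666a-5p: aUACAUGUcagauuguaugcc, chr1:228462083-228462103, plus strand
hsa-miR-4666a-3p: cAUACAAUcugacauguauuu, chr1:228462125-228462145, plus strand
hsa-miR-4432: aAAGACUCugcaagaugccu, chr2:60387362-60387381, minus strand
hsa-miR-1246: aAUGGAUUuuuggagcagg, chr2:176601024-176601042, minus strand
hsa-miR-3131: uCGAGGACugguggaagggccuu, chr2:219058725-219058747, minus strand
hsa-miR-3124-5p: uUCGCGGGcgaaggcaaaguc, chr1:248826383-248826403, plus strand
hsa-miR-3124-3p: aCUUUCCUcacucccgugaagu, chr1:248826418-248826439, plus strand
hsa-miR-4422: aAAAGCAUcaggaaguaccca, chr1:55225656-55225676, plus strand
Each seed in these lines is different from the others. None of the 16 genes shared a seed with another microRNA gene of the set whose mature sequence was at hand.

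Of the 237 features, 43 rose and 35 fell in TCDD against DMSO by limma with an adjusted p under 0.05 over all features, 78 in all. That is 32.9% of the set, against a background of 17.4% of all features called, 9.41% higher and 8.01% lower. A change of at least 1.5-fold with an unadjusted p under 0.05 was met by 6 features that were higher and 10 that were lower, or 6.75% of the set, against 1.67% of all features (0.919% higher and 0.756% lower). Most called changes were small, as 63 of the 78 were under 1.5-fold. The median change of the set was -0.0050 on the log2 scale (all features 0.023), so the set as a whole did not sit to one side, and the median size of a change was 0.189 (all features 0.119). The count of calls rested on the arrays used and on how the spread was modelled. Without DMSO replicate 2 it was 30 features (12.7%, all features 4.77%), and without TCDD replicate 1 it was 46 (19.4%, all features 8.43%). With the spread prior taken from microRNA features alone, a setting chosen after seeing the data, 46 features were called (19.4%, all features 16.9%).

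MIR561, a gene inside GULP1 whose product is an adaptor for the uptake of dying cells, had the largest change of the set. It read 8.30 and 8.15 in the DMSO arrays and 6.80 and 6.89 in the TCDD arrays. All TCDD values were far below all DMSO values, a fall of 2.60-fold (change -1.38, SE 0.070, limma adjusted p = 0.0012). It was the only feature of the set that changed by at least 2-fold with an unadjusted p under 0.05. The hairpin of MIR561, at chr2:188297492-188297588 on the plus strand, is shown with both mature forms in capitals.
MIR561 hairpin: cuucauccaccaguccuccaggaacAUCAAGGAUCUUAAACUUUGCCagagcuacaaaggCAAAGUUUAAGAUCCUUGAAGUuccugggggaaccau

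MIR578 lies within CPE, which encodes carboxypeptidase E, an enzyme that trims prohormones in neuroendocrine cells. The feature read 9.53 and 9.58 in DMSO and 8.60 and 8.80 in TCDD, a fall of 0.86 (SE 0.075, limma adjusted p = 0.0046), with a DMSO gap much narrower than the distance between the groups. MIR4666A, between genes on chromosome 1, read 7.56 and 7.90 against 6.81 and 6.97. It fell by 0.84 (SE 0.12, limma adjusted p = 0.012), but its DMSO replicates differed by 0.339, and without DMSO replicate 2 the fall was 0.67 and not called. MIR4432 and MIR4422 each lie in a noncoding transcript named after them as their host. MIR4432 read 7.23 and 7.26 in DMSO and 6.34 and 6.51 in TCDD, a change of -0.82 (SE 0.069, limma adjusted p = 0.0044). MIR4422 read 7.00 and 7.27 against 6.40 and 6.42, a change of -0.72 (SE 0.091, limma adjusted p = 0.0097). Both kept their TCDD values below every DMSO value, and in MIR4422 the DMSO arrays were the ones that spread.

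MIR1246 is a microRNA whose short sequence is also found within the U2 small nuclear RNA, a part of the spliceosome, and the sources of signal cannot be told apart here. Its feature read 8.74 and 8.95 in DMSO and 7.98 and 8.18 in TCDD. The fall was 0.77 (SE 0.097, limma adjusted p = 0.0097), and without DMSO replicate 2 it was 0.66 and not called. MIR3131, inside the gene of the signalling protein Indian hedgehog, read 8.51 and 8.25 against 7.64 and 7.61, a change of -0.75 (SE 0.088, limma adjusted p = 0.0082). MIR3124, between genes near the end of chromosome 1, read 7.56 and 7.44 against 6.71 and 6.83, a change of -0.73 (SE 0.068, limma adjusted p = 0.0057). In both of these the DMSO and TCDD arrays stood well apart. The remaining 27 falls ranged from -0.71 to -0.21.

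The largest rise was that of MIR4434, inside AFTPH, the gene of a vesicle trafficking protein. MIR4434 read 5.32 and 4.91 in DMSO and 6.22 and 5.85 in TCDD, a rise of 0.92 or 1.89-fold (SE 0.16, limma adjusted p = 0.020). Replicates differed by 0.408 in DMSO and 0.369 in TCDD, and the rise was not called without DMSO replicate 2 (0.72) or under quantile normalization (0.94). MIR3684 lies in METAP1, the gene of an enzyme that removes the first methionine from new proteins. It read 4.27 and 4.32 against 5.18 and 5.07, a rise of 0.83 (SE 0.061, limma adjusted p = 0.0032). MIR3115, inside the histone demethylase gene KDM1A, read 6.26 and 6.30 against 7.07 and 7.05, a rise of 0.78 (SE 0.051, limma adjusted p = 0.0023). Both had narrow gaps in both groups, unlike MIR4434. MIR3140 lies within FBXW7, the substrate-binding part of a ubiquitin ligase, and read 7.44 and 6.83 in DMSO against 8.04 and 7.73 in TCDD. Its rise of 0.75 had the largest error of the named genes (SE 0.20, limma adjusted p = 0.049), since the DMSO arrays were 0.608 apart. Without DMSO replicate 2 it was 0.45 and not called, and 4 of the other alternatives lost the call as well.

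Among the other large rises, MIR3682 lies on the strand of GPR75-ASB3, a readthrough of a pair of neighbouring genes. It read 5.67 and 5.41 in DMSO and 6.16 and 6.23 in TCDD, a rise of 0.65 (SE 0.092, limma adjusted p = 0.012). MIR553, in RTCA, an enzyme that cyclises RNA ends, read 7.58 and 7.63 against 8.24 and 8.23, a rise of 0.63 (SE 0.051, limma adjusted p = 0.0041). MIR3671, in the tyrosine kinase gene JAK1, read 7.91 and 7.82 against 8.39 and 8.35, a rise of 0.50 (SE 0.056, limma adjusted p = 0.0080). The groups of all 3 were separated by more than their replicate gaps. MIR4684, in the ephrin receptor gene EPHB2, read 8.90 and 8.92 against 9.42 and 9.38, a rise of 0.49 (SE 0.051, limma adjusted p = 0.0071). The remaining 35 rises ranged from 0.20 to 0.48. All 8 of the largest rises and 5 of the 8 largest falls lay inside a gene on its own strand, as did 140 of all 237 features.

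**Figure D1:**
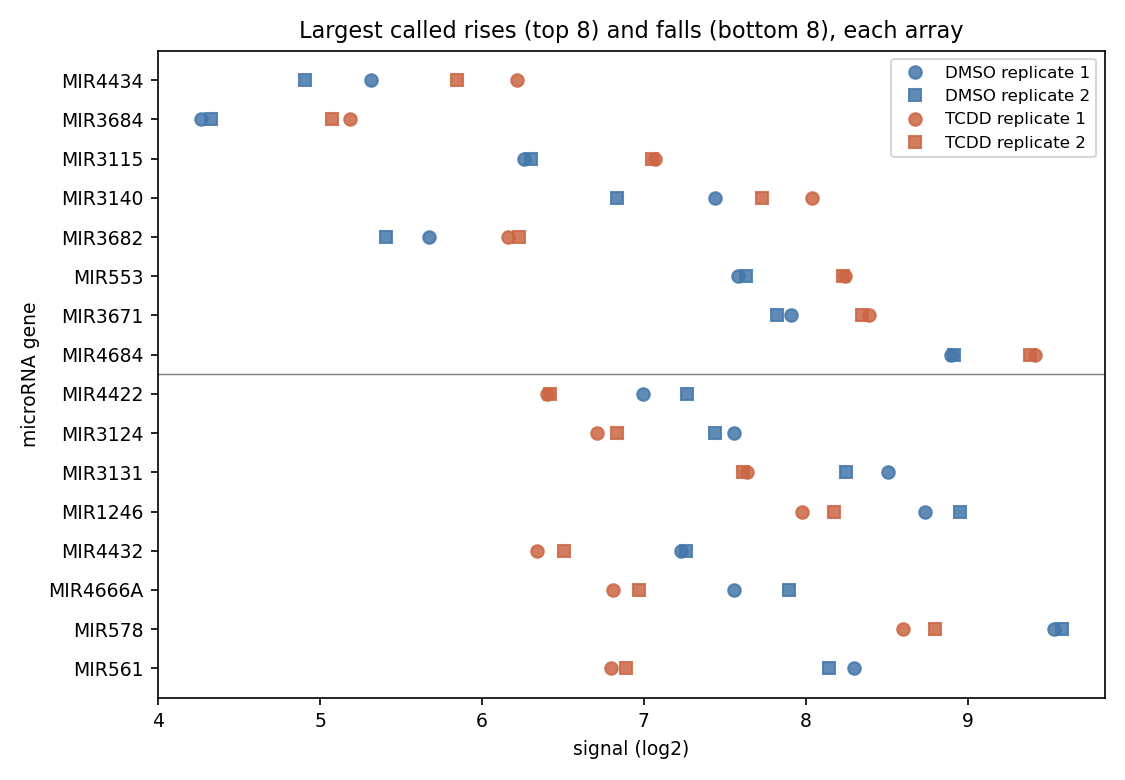
Signal (log2, x axis) of the 8 largest called rises (top) and 8 largest called falls (bottom) in each of the 4 arrays, DMSO in blue and TCDD in orange, replicate 1 as circles and replicate 2 as squares. MIR561 at the bottom shows the widest separation, and MIR4434 and MIR3140 show wide gaps between replicates.

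A total of 16 features, 9 higher and 7 lower, were called in the same direction in every one of 12 fits of all features, alternatives and left-out arrays included. Of the 16 named above, 12 were among them, the exceptions being MIR4434, MIR3140, MIR4666A and MIR1246. The other 4 were smaller changes. MIR4255, between genes on chromosome 1, read 6.0 and 6.25 in DMSO and 6.55 and 6.65 in TCDD, a rise of 0.48 (SE 0.091, limma adjusted p = 0.024). MIR3916, also between genes, read 9.71 and 9.72 against 10.13 and 10.07, a rise of 0.39 (SE 0.053, limma adjusted p = 0.012). MIR760, on the strand opposite to BCAR3, read 9.31 and 9.29 against 8.88 and 8.84, a fall of 0.44 (SE 0.051, limma adjusted p = 0.0082). The last of these 4, MIR548P, is described with its family. MIR4255, MIR3916 and MIR760 were named after their values had been seen.

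The gap between replicates was wider for these microRNA features than for the table as a whole. The SD of the difference between the DMSO arrays was 0.177 over the set, 0.132 over all features and 0.0961 over protein-coding features. Between the TCDD arrays it was 0.117, 0.0855 and 0.0542. The 51 microRNA features numbered up to 500 gave 0.153 in DMSO and 0.108 in TCDD, much like the later ones. In 153 of the 237 features (64.6%) the DMSO gap was the wider, and the median gap was 0.0986 in DMSO and 0.0625 in TCDD. The gap was wide among brighter members too, as the 85 features at or above the median signal of all features had SDs of 0.157 and 0.0900, against 0.111 and 0.0695 for all features of that range. The 152 dimmer members had SDs of 0.187 and 0.129. These differences in spread were not tested.

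**Figure D2:**
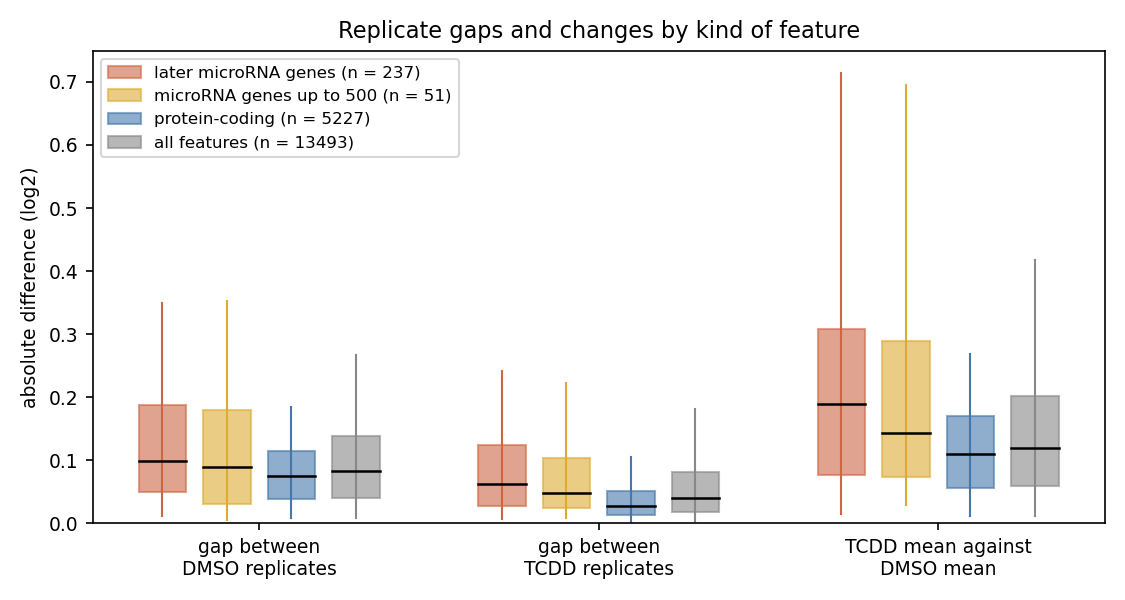
Absolute log2 difference between the 2 DMSO arrays, between the 2 TCDD arrays and between the group means, for the later microRNA features, microRNA features numbered up to 500, protein-coding features and all features. Boxes span the 25th to the 75th percentile with the median as a line, and whiskers run from the 5th to the 95th percentile. Both microRNA classes show wider boxes than the protein-coding features in all 3 measures.

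Set against this spread, the DMSO and TCDD values did not overlap in 173 features (73.0%), close to the 71.7% of all features. In 92 features (38.8%) the groups lay further apart than the replicates of either group, against 34.3% of all features. The change between means was larger than either replicate gap in 147 features (62.0%, all features 58.3%). By these measures, which use no model of the spread, the set stood nearer to the background than by the count of calls. All 78 called features had groups that did not overlap, and in 69 of them the groups were further apart than either gap.

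**Figure D3:**
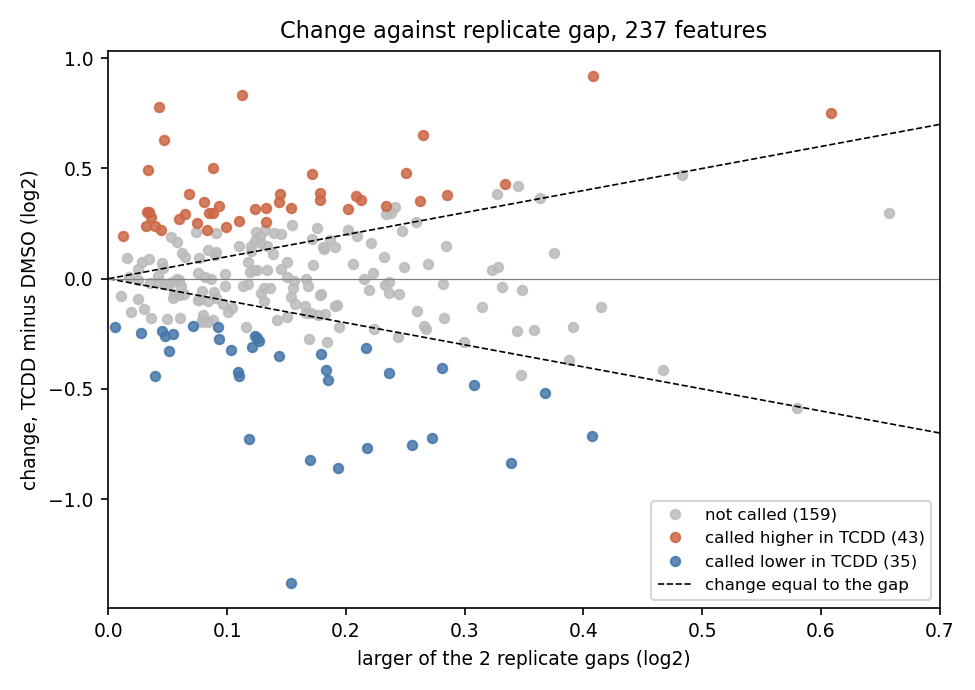
Change of each of the 237 features (TCDD minus DMSO, log2, y axis) against the larger of its 2 replicate gaps (log2, x axis), called rises in orange, called falls in blue and features not called in grey. Dashed lines mark a change equal to the gap, and MIR561 is the lowest point, with a change of -1.38.

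The widest gaps show how far 2 arrays of a group could differ. MIR4256 read 6.07 and 6.72 in the DMSO arrays, and its difference of 0.30 between groups was not called (limma adjusted p = 0.287), but was 0.63 and called without DMSO replicate 2. MIR4278 read 6.15 and 6.73 in DMSO, and its difference of -0.59 (limma adjusted p = 0.064) passed the 1.5-fold rule without being called, but was called when DMSO replicate 1 (-0.88) or either TCDD array (-0.52 and -0.66) was left out. Among the TCDD pairs, MIR576, inside the secretory coat gene SEC24B, was widest at 6.46 and 5.97, with a difference of 0.47 (limma adjusted p = 0.071) that was 0.71 and called without TCDD replicate 2. MIR3117, inside SGIP1, followed with 6.96 and 6.59 and a difference of 0.12 (limma adjusted p = 0.522). MIR3140 in DMSO and MIR4434 in TCDD complete the 3 widest pairs of each group.

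The arrays as a whole differed little in level. Their medians over all features lay between 8.19 and 8.22, and their interquartile ranges between 2.00 in DMSO replicate 2 and 2.21. Over the 237 features, arrays correlated at 0.996 within DMSO, at 0.998 within TCDD and at 0.984 to 0.990 across groups, and at most 2 values were identical in any pair of arrays. The labelled cell type was checked with markers of noradrenergic neuroblasts, of which HAND2, HAND1, GATA2, ISL1 and GAP43 were measured and read 9.55 to 11.5. All 5 were above 8.39, the 95th percentile of 70 olfactory receptor features, which serve as a guide to genes not made by these cells. The 4 measured markers of mesenchymal-type neuroblastoma cells were above it too (8.5 to 12.1), whereas the 4 immune markers (6.18 to 7.77), EPCAM (7.52) and KDR (7.08) were below it. Of 2 Schwann cell and glial markers, 1 was above it. HAND1, PRRX1, TGFBR2 and NOTCH2 were called higher in TCDD and FCGR3A lower, and their part in the results was not tested. HAND1 was not called under quantile or cyclic loess normalization, with array weights, or with DMSO replicate 2 or either TCDD array left out (0.17 to 0.22).

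By number, the 59 features below 1000 held 12 rises and 8 falls, and the 31 features in the range from 1000 held 5 and 3. The 42 features in the range from 3000 held 13 rises and 4 falls, and the 100 features in the range from 4000 held 12 rises and 19 falls. Of only 5 features in the range from 2000, MIR2355 rose (0.26, limma adjusted p = 0.045) and MIR2115 fell (-0.22, limma adjusted p = 0.034). The MIR2355 call was lost with any 1 array left out (0.19 to 0.33), and that of MIR2115 without DMSO replicate 2 or either TCDD array (-0.22 in each) and under quantile or cyclic loess normalization (-0.18 in both), and both calls with the other spread priors. Rises therefore outnumbered falls in the range from 3000 (31.0% and 9.52% of its features). The reverse held in the range from 4000 (12% and 19%). Among all features, 9.41% were called higher and 8.01% lower. The difference between the ranges was not tested, and the counts by number were not repeated under the alternatives. By chromosome, 25 of 58 features were called on chromosome 1 (43.1%), 19 of 61 on chromosome 2 (31.1%) and 8 of 40 on chromosome 3 (20%). On chromosome 4 it was 14 of 35 (40%) and on chromosome 5 it was 12 of 43 (27.9%). The share over all features was 17.4%, to which chromosome 3 was nearest. The 1.5-fold rule was passed by 0 of the 40 features on chromosome 3, against 1.67% of all features. So few features cannot show a trait of that chromosome.

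The MIR548 genes derive from copies of a short DNA transposon and form a family of many similar members. A total of 17 features carried the name, of which 2 rose and 3 fell (11.8% and 17.6%, all features 9.41% and 8.01%). MIR548T, inside GALNT7, a gene of the enzyme class that starts O-linked sugar chains, read 10.01 and 10.42 in DMSO and 9.45 and 9.56 in TCDD. It fell by 0.71 (SE 0.13, limma adjusted p = 0.021), a call that quantile normalization ended (-0.83). MIR548P, inside ST8SIA4, which builds polysialic acid chains on neural cell adhesion molecules, read 4.94 and 5.09 against 5.37 and 5.35. It rose by 0.35 (SE 0.064, limma adjusted p = 0.022). MIR548F2, inside the receptor tyrosine kinase gene ERBB4, read 6.94 and 7.12 against 7.46 and 7.31, a rise of 0.36 (SE 0.082, limma adjusted p = 0.036). Leaving out DMSO replicate 1 (0.27), DMSO replicate 2 (0.44) or TCDD replicate 1 (0.28) ended the call. Thus called members of 1 family moved in both directions. These 3 features were named for the smallest p of the family. No called feature of the set had overlapping groups, so the lack of overlap in these 3 is not a separate result. MIR548I2 (-0.22, limma adjusted p = 0.049) and MIR548AD (-0.28, limma adjusted p = 0.038) were the other called members, and MIR548I2 lost its call when DMSO replicate 2 (-0.19) or either TCDD array (-0.27 and -0.17) was left out, and under quantile or cyclic loess normalization (-0.15 in both), array weights or the other spread priors. MIR1302, another family that derives from a DNA transposon, had 2 features. MIR1302-3 read 4.13 and 4.13 in DMSO and 4.45 and 4.42 in TCDD, a rise of 0.30 (SE 0.050, limma adjusted p = 0.018) that was not called without DMSO replicate 2 (0.31) or without TCDD replicate 1 (0.29). MIR1302-4 differed by 0.12 (limma adjusted p = 0.207).

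Copies also blur what a feature measures. For 12 features the RefSeq gene of that symbol lies on another chromosome than the feature, among them 9 of the MIR548 type. Limma called 0 of the 12, against 17.4% of all features, a difference not tested in so few features. An unadjusted p under 0.05 was found for 3, and its share over all features was not computed. Without DMSO replicate 1, 4 of the 12 were called, a setting that called 34.5% of all features, and 2 were called after cyclic loess (all features 14%). Genes with 2 features each were MIR548AC, MIR548G and MIR4454. The features of MIR548AC differed by 0.18 (limma adjusted p = 0.130) and by -0.038 (limma adjusted p = 0.809), those of MIR548G by -0.068 (limma adjusted p = 0.365) and 0.040 (limma adjusted p = 0.667), and those of MIR4454 by 0.069 (limma adjusted p = 0.537) and -0.15 (limma adjusted p = 0.077). None of these 6 features passed, and in each gene the pair had opposite signs. The brighter MIR548AC feature was called without DMSO replicate 1 (-0.20), and the dimmer MIR4454 feature under quantile normalization (-0.20), after cyclic loess (-0.22) and with the dimmest features left out (-0.15).

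The 5 features with the highest signals were MIR548AD, MIR1303, MIR4449, MIR548A3 and MIR1285-2. MIR548AD read 13.94 and 14.03 in DMSO and 13.77 and 13.64 in TCDD, a fall of 0.28 (SE 0.066) that was not called without DMSO replicate 2 (-0.24) or TCDD replicate 2 (-0.22), under quantile normalization (-0.19), with array weights or with the microRNA spread prior. MIR1303, inside LARP1, read 12.31 and 12.53 against 12.22 and 12.16, a difference of -0.23 (limma adjusted p = 0.093) that was called without DMSO replicate 1 (-0.34). The other features of this group differed by -0.12 for MIR548A3 (limma adjusted p = 0.297), -0.015 for MIR4449 (limma adjusted p = 0.847) and -0.0035 for MIR1285-2 (limma adjusted p = 0.977). For MIR4449 the 95% interval ran from -0.14 to 0.11, so a change of 1.5-fold lay outside it.

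Shared seeds were few. A seed could be read for 218 features from 293 mature forms, which gave 279 different seeds, and 14 seeds were shared by 24 features in all. The sequences of 4 pairs in which 1 partner was called are shown, with the seed in capitals. The letters in capitals are the same within each pair. Outside them the first 3 pairs differ in some bases and share others, and in the last pair the whole mature form is the same.
hsa-miR-3916: aAGAGGAAgaaauggcugguucucag, chr1:247202016-247202041, minus strand
hsa-miR-3125: uAGAGGAAgcuguggagaga, chr2:12737376-12737395, plus strand
hsa-miR-551a: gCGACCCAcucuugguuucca, chr1:3560710-3560730, minus strand
hsa-miR-551b-3p: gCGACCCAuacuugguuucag, chr3:168551914-168551934, plus strand
hsa-miR-1255a: aGGAUGAGcaaagaaaguagauu, chr4:101330365-101330387, minus strand
hsa-miR-1255b-5p: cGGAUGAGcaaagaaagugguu, chr1:167998665-167998686, plus strand
hsa-miR-548f-3p: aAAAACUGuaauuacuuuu, chr2:212426284-212426302, minus strand for MIR548F2 and chr5:110513844-110513862, minus strand for MIR548F3

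MIR3916 rose by 0.39 as given above, while MIR3125 read 8.80 and 8.82 in DMSO and 8.87 and 8.94 in TCDD, a difference of 0.094 (SE 0.054, limma adjusted p = 0.235). MIR551A, inside MEGF6, read 8.32 and 8.2 against 7.94 and 7.97, a fall of 0.31 (SE 0.061, limma adjusted p = 0.026) that was not called without TCDD replicate 1 (-0.29) or under quantile normalization (-0.29). MIR551B read 9.0 and 9.23 against 9.07 and 9.03, a difference of -0.066 (SE 0.084, limma adjusted p = 0.576). So the DMSO and TCDD values of MIR551A were apart and those of MIR551B overlapped. MIR1255A read 5.84 and 5.73 against 5.50 and 5.43, a fall of 0.32 (SE 0.060, limma adjusted p = 0.023) that was not called without DMSO replicate 2 (-0.38) or TCDD replicate 2 (-0.29), nor under quantile (-0.29) or cyclic loess (-0.28) normalization. MIR1255B2 read 8.78 and 8.87 against 8.88 and 8.64, a difference of -0.068 (SE 0.088, limma adjusted p = 0.581). MIR548F3 read 4.15 and 4.17 against 4.40 and 4.27, which is 0.17 higher in TCDD (SE 0.061, limma adjusted p = 0.091) and has the sign of MIR548F2. The 4 differences between partners were not tested, so a pair in which 1 partner was called is not shown to differ. The pairs MIR4270 with MIR4441, MIR1245B with MIR3142 and MIR3136 with MIR4439 held no called feature.

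Another 5 pairs of copies are the 2 strands of 1 locus, so that each hairpin of a pair is read from the opposite strand of the same bases, or nearly so. MIR3119-1 and MIR3119-2 share chr1:170151378-170151462, on the minus and the plus strand, and give the same mature form, which is in capitals.
MIR3119-1 hairpin: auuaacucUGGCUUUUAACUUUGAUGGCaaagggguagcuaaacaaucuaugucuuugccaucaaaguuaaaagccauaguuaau
MIR3119-2 hairpin: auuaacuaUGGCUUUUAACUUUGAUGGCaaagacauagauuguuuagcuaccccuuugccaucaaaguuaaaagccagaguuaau
MIR3119-1 read 4.90 and 4.95 in DMSO and 4.69 and 4.68 in TCDD, a fall of 0.24 (SE 0.051, limma adjusted p = 0.032) that was lost when DMSO replicate 2 (-0.21) or either TCDD array (-0.24 and -0.23) was left out, or with the microRNA spread prior. MIR3119-2 read 5.71 and 5.61 against 5.50 and 5.68, a difference of -0.069 (SE 0.075, limma adjusted p = 0.514), and its groups overlapped. The 95% intervals, -0.36 to -0.11 and -0.25 to 0.11, overlap, and the difference between the strands was not tested. In the other 4 pairs neither strand was called. The largest difference among them was that of MIR4773-1, at -0.23 (limma adjusted p = 0.177), beside -0.013 for MIR4773-2.

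The question of whether microRNA features moved with the genes around them could be asked for most of the set. By the RefSeq position of its symbol, 140 of the 237 features lay inside a gene on its own strand, 22 inside a gene on the opposite strand and 42 between genes. For 25 more the strand of the surrounding gene was not given, and 8 had no position in the sources used here. On the strand of the gene 30 rose and 18 fell, 12 of them past the 1.5-fold rule. On the opposite strand 3 rose and 4 fell, and between genes 5 rose and 8 fell. The calls were therefore 34.3%, 31.8% and 31.0% of these classes, nearly the same share in each. The 12 features on another chromosome than their RefSeq gene were not left out of these counts where that gene had a position. The surrounding genes were taken whole, and whether a hairpin lies in an exon or an intron was not analysed here.

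The surrounding gene had its own feature in 119 cases on the same strand, with 114 different genes. Both features of MIR548AC are among them, paired with CD58 on chromosome 1 although the features lie on chromosomes 3 and 4. Of these 119 microRNA features 40 were called, in 5 cases the gene was called, and in 3 cases both. The background was 17.4% for all features and 11.1% for protein-coding features. The median size of a change was 0.189 for the microRNA features and 0.087 for the genes, whose changes ran from -0.29 to 0.25. Across the 119 pairs, changes of the microRNA and of its gene correlated weakly (Pearson 0.111, Spearman 0.029), values that share the 4 arrays and are a description only.

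MIR3131 and its host gene IHH both fell. IHH read 9.19 and 9.05 in DMSO and 8.79 and 8.87 in TCDD, a change of -0.29 (SE 0.067, limma adjusted p = 0.037), beside -0.75 for MIR3131. The IHH call was lost without DMSO replicate 1 (-0.22), DMSO replicate 2 (-0.36) or TCDD replicate 1 (-0.25), whereas that of MIR3131 was not. MIR3650 and LIFR, the receptor of leukaemia inhibitory factor, both rose. MIR3650 read 8.70 and 8.46 in DMSO and 8.88 and 8.93 in TCDD, a rise of 0.33 (SE 0.084, limma adjusted p = 0.045). The call ended when DMSO replicate 2 (0.21) or TCDD replicate 2 (0.30) was left out, and under quantile or cyclic loess normalization. LIFR read 8.37 and 8.30 against 8.60 and 8.56, a rise of 0.25 (SE 0.054, limma adjusted p = 0.032) that was lost when DMSO replicate 2 (0.22) or either TCDD array (0.23 and 0.27) was left out. MIR4786 and NDUFA10, a subunit of mitochondrial complex I, went opposite ways. MIR4786 read 8.48 and 8.53 against 8.22 and 8.27, a fall of 0.26 (SE 0.053, limma adjusted p = 0.027) that was lost when DMSO replicate 2 (-0.23) or either TCDD array (-0.24 and -0.28) was left out. NDUFA10 read 9.28 and 9.16 against 9.43 and 9.46, a rise of 0.23 (SE 0.060, limma adjusted p = 0.049) that lost its call without the same arrays (0.17, 0.24 and 0.21). Under quantile or cyclic loess normalization NDUFA10 differed by 0.13 and was not called, nor was it with array weights or median centring (0.24). On opposite strands, MIR4273 rose by 0.32 (limma adjusted p = 0.028) and ZNF717 by 0.20 (limma adjusted p = 0.047), but neither was called under quantile normalization (0.37 and 0.069), neither was with array weights, and ZNF717 was not after cyclic loess (0.078). Without DMSO replicate 2 or TCDD replicate 1 neither was called, with MIR4273 at 0.28 and 0.25 and ZNF717 at 0.18 in both cases, and without TCDD replicate 2 ZNF717 was not (0.22).

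In the other cases with a large change and a feature for the surrounding gene, that gene was not called. The genes around MIR3682, MIR4684, MIR4432 and MIR4422 had no feature of their own to compare. GULP1 read 10.52 and 10.48 in DMSO and 10.66 and 10.57 in TCDD, a difference of 0.11 (SE 0.057, limma adjusted p = 0.188; 95% interval -0.025 to 0.25), while MIR561 within it fell by 1.38. CPE read 9.81 and 9.69 against 9.84 and 9.84, a difference of 0.093 (SE 0.060, limma adjusted p = 0.284; 95% interval -0.053 to 0.24), while MIR578 fell by 0.86. These intervals do not reach the falls of the microRNA features inside them. AFTPH differed by 0.083 (limma adjusted p = 0.381), METAP1 by 0.20 (limma adjusted p = 0.064), KDM1A by 0.067 (limma adjusted p = 0.385) and RTCA by 0.072 (limma adjusted p = 0.358). JAK1 differed by 0.090 (limma adjusted p = 0.305), FBXW7 by 0.14 (limma adjusted p = 0.148) and GALNT7 by 0.14 (limma adjusted p = 0.103). In CKS1B, a cell cycle kinase subunit, and in the long noncoding RNA DANCR it was the other way round. CKS1B rose by 0.25 (limma adjusted p = 0.029) and DANCR by 0.25 (limma adjusted p = 0.043), while MIR4258 (-0.043, limma adjusted p = 0.649) and MIR4449 (-0.015) inside them were not called. Neither gene was called under quantile normalization (0.14 and 0.16) or after cyclic loess (0.15 and 0.16). The same held when DMSO replicate 2 (0.22 and 0.18), TCDD replicate 1 (0.26 and 0.25) or TCDD replicate 2 (0.24 and 0.26) was left out.

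**Figure D4:**
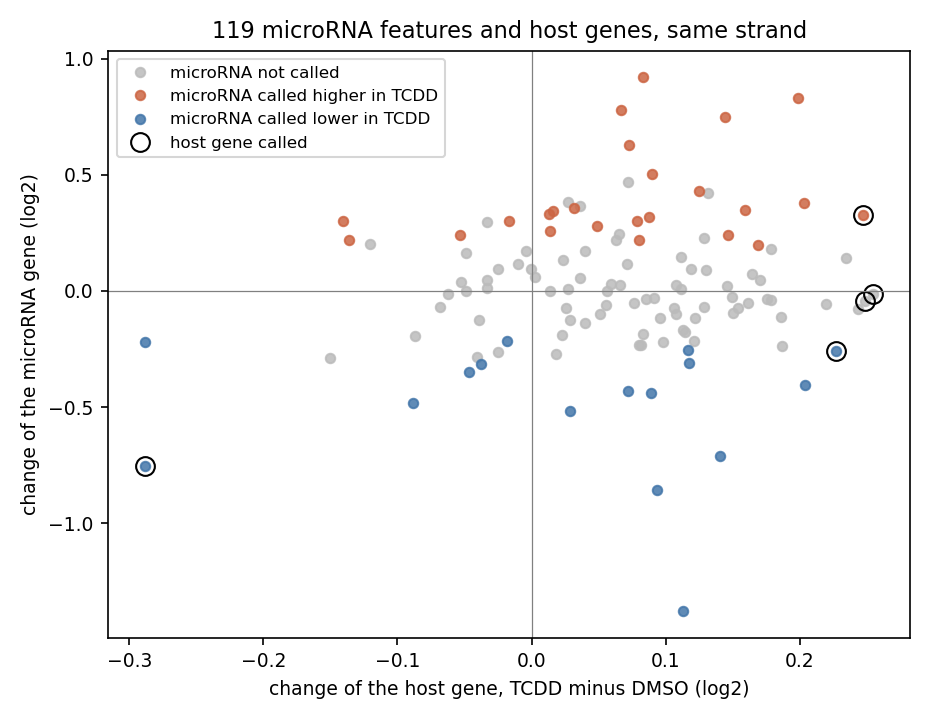
Change of the microRNA feature (TCDD minus DMSO, log2, y axis) against the change of the gene around its RefSeq position on the same strand (log2, x axis), 119 features. The MIR548AC features, paired with CD58, lie on other chromosomes than that gene. Orange and blue mark called rises and falls of the microRNA and rings mark the 5 cases with a called gene, and the genes spread from -0.29 to 0.25 while the microRNA features spread from -1.38 to 0.92.

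Base composition of the hairpin went with the signal of a feature. A hairpin sequence was at hand for 190 of the 237 features, and across them GC content and mean signal correlated (Pearson 0.768, Spearman 0.765). Features share the 4 arrays and one probe chemistry, so this is a description. Hairpins at the ends of the range of mean signal, not of GC content, are shown with G and C in capitals. The highest signals come first, MIR4449 (86.4% GC, mean signal 11.8) at chr4:52712682-52712747, plus strand, and MIR1229 (66.7%, 11.2) at chr5:179798278-179798346, minus strand. Those of MIR2054 (16.3%, 3.49) at chr4:125507259-125507307, plus strand, and MIR556 (27.4%, 3.65) at chr1:162342546-162342640, plus strand, follow.
MIR4449 hairpin: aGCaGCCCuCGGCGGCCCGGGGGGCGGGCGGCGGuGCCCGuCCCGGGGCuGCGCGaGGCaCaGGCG
MIR1229 hairpin: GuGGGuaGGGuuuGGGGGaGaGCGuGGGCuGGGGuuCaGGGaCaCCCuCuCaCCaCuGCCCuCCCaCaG
MIR2054 hairpin: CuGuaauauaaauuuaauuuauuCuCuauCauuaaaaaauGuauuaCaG
MIR556 hairpin: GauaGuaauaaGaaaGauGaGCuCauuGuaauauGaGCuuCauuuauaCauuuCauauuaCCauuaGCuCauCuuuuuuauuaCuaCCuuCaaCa
Of these only MIR1229, which is made from a short intron of MGAT4B by splicing, was called. It read 11.30 and 11.35 in DMSO and 11.04 and 11.10 in TCDD, a fall of 0.25 (SE 0.053, limma adjusted p = 0.030), while MGAT4B differed by 0.12 (limma adjusted p = 0.171). MIR1229 lost its call when DMSO replicate 2 (-0.23) or either TCDD array (-0.23 and -0.28) was left out, or with the microRNA spread prior.

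GC content also went with the gap between the DMSO arrays. The signed gap, DMSO replicate 2 minus replicate 1, correlated with GC at -0.268 (Pearson, Spearman -0.305) and the corresponding TCDD gap at 0.095 (Spearman 0.092), while the change correlated at -0.131 (Spearman -0.143). Among all features, 9.41% were called higher and 8.01% lower. In the 57 features above 55% GC, 3 rose and 11 fell (5.26% and 19.3%), and the median signed DMSO gap was -0.064. In the 29 features at or below 35% GC, 8 rose and 4 fell (27.6% and 13.8%), and that gap was 0.045. The 53 features from 35 to 45% held 12 rises and 9 falls (22.6% and 17.0%). The 51 from 45 to 55% held 12 and 6 (23.5% and 11.8%). The preponderance of falls among GC-rich hairpins was not seen when DMSO replicate 1 was left out. Without DMSO replicate 1, 14 rose and 12 fell in that class, and without DMSO replicate 2, 0 rose and 7 fell. Quantile normalization gave 1 rise and 10 falls there and 3 rises and 3 falls at or below 35% GC, and cyclic loess gave 1 and 11 there. The part of base composition in the calls was not tested.

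**Figure D5:**
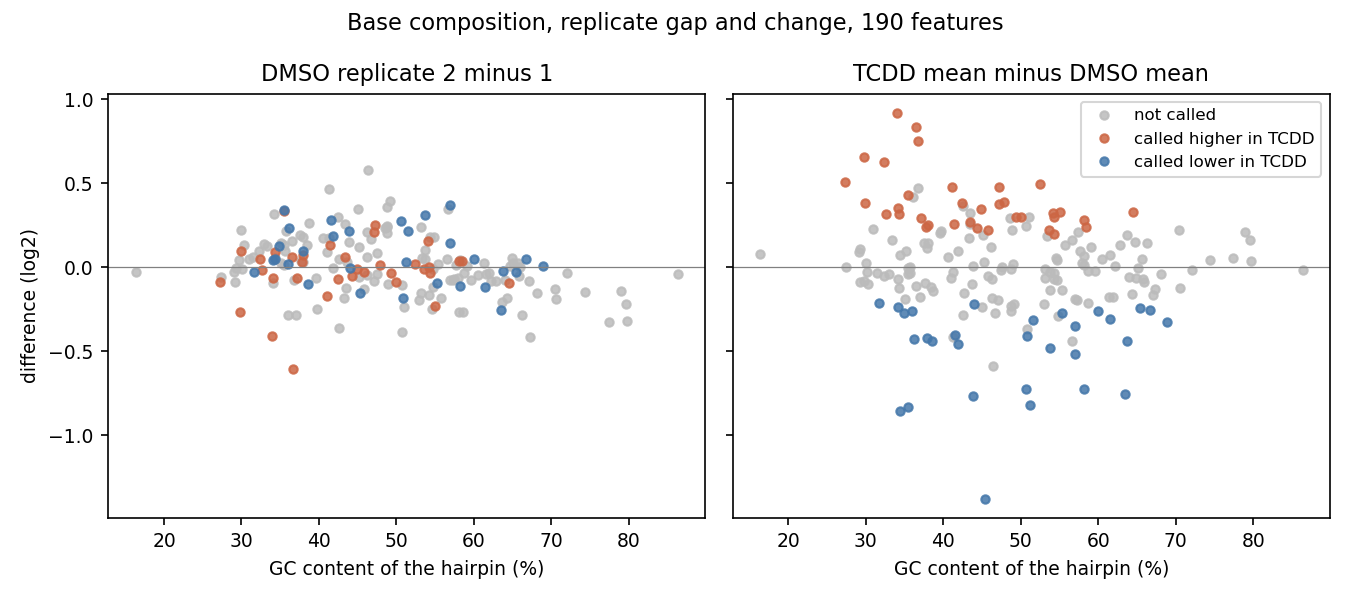
GC content of the hairpin (%, x axis) against the difference between DMSO replicates (left, replicate 2 minus 1, log2) and against the change (right, TCDD minus DMSO, log2) for the 190 features with a hairpin sequence, coloured by call. Above 55% GC, 3 features were called higher and 11 lower (5.26% and 19.3%, all features 9.41% and 8.01%), and the DMSO difference leans below 0 there.

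Signal level and change were weakly related across the 237 features (Pearson -0.103, Spearman -0.079). The olfactory guide level of 8.39 was reached by 77 of the 237 features, of which 10 rose and 12 fell (13.0% and 15.6%). Of the 160 features below it, 33 rose and 23 fell (20.6% and 14.4%). All features showed another split. Of 6158 at or above the level, 724 rose and 244 fell (11.8% and 3.96%). Of 7335 below it, 546 rose and 837 fell (7.44% and 11.4%). After cyclic loess the 77 brighter microRNA features held 2 rises and 14 falls, and under quantile normalization 2 and 9. The direction of calls among bright members thus depended on the scaling. The same counts were not made for all bright features, so this is not shown to be particular to the set. Most called rises, like MIR3684 and MIR3115, were in features below the guide level. So were most called falls and most of the set (160 of 237 features).

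The proteins that make, load and remove microRNAs were looked at through a list of 39 genes, of which 17 were measured. By limma 0 of the 17 were called, against 17.4% of all features. An unadjusted p under 0.05 was found for 8, and for 0 under quantile or cyclic loess normalization. The share of all features at that unadjusted p was not computed. Their changes ran from 0.026 to 0.20. The median change of the 17 was 0.13, against 0.023 for all features, and fell to 0.029 after cyclic loess and 0.019 under quantile normalization. Without DMSO replicate 1, 8 of the 17 were called, at a median of 0.18, in a fit that called 34.5% of all features. DROSHA, the nuclease that cuts the hairpin from the primary transcript, read 10.04 and 9.94 in DMSO and 10.08 and 10.06 in TCDD, a difference of 0.084 (SE 0.057, limma adjusted p = 0.301; 95% interval -0.053 to 0.22). TUT4, which adds uridines to microRNA precursors, differed by 0.12 (limma adjusted p = 0.182), and DIS3L2, which degrades uridylated precursors, by 0.071 (limma adjusted p = 0.334). The nearest to the threshold was XRN1, an exonuclease that degrades decapped RNA, which read 9.79 and 9.71 against 10.00 and 9.91, a difference of 0.20 (SE 0.060, limma adjusted p = 0.062). GEMIN5 (0.18, limma adjusted p = 0.069) and ADAR (0.17, limma adjusted p = 0.075), which edits adenosines in double-stranded RNA, followed. AGO1, DGCR8 and DICER1 were not analysed here.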

How the data were processed

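The values are log2 signals that the authors made with RMA (robust multi-array average), per the submitters' processing notes, and deposited as 1 table. RMA as generally described corrects background, normalizes by quantiles and summarises probes, which draws weak signals together. For its version, its settings and the probe design the sources used here give nothing, and chromosomes other than 1 to 5 were not analysed here. Groups came from the sample titles. The test was limma's (version 3.58.1, R 4.3.3, lmFit and eBayes, 2 residual and 4.27 prior degrees of freedom, two-sided), and p-values were adjusted over all 13493 features by Benjamini-Hochberg. Changes are TCDD minus DMSO group means, with the moderated SE. The fit was tested on simulated arrays. Platform symbols were brought up to date with RefSeq, 235 of 237 features by Entrez identifier and 2 by symbol. Hairpin sequences were at hand for 190 features, and 39 were placed by a mature form only.

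Features were named by rule: the 8 largest called rises and falls without overlap, the 5 highest signals, up to 3 of each MIR548 or MIR1302 family, up to 6 called with their surrounding gene, genes with several features, and the 3 widest gaps of each group. Those with a shared seed or a shared locus, and others said to be so, were named after their values had been seen. The members and lists were chosen with earlier results of these data known. Alternatives were a replicate block, other normalizations, other spread priors, array weights, filters, other fold thresholds and each array left out.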

Additional observations from a re-analysis of the deposited data

How the results depend on the processing

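With 2 arrays per group, single arrays weigh heavily. The count of called features ran from 30 to 99 when 1 array was left out, lowest without DMSO replicate 2 (12.7%, all features 4.77%) and highest without DMSO replicate 1 (41.8%, all features 34.5%). It was 49 under quantile normalization (20.7%, all features 11%) and 46 with the spread prior taken from microRNA features, chosen after seeing the data (19.4%, all features 16.9%). It was 35 of the 85 features left when the dimmest 50 percent were dropped (41.2%, all features 25.4%). Median centring, cyclic loess, array weights, a trended robust prior and identical features counted once gave 62 to 83. The replicate block, for which same-numbered arrays share only a number (their deviations correlated at 0.037), called 116, 63 higher and 53 lower (48.9%, all features 26.9%). The count past 1.5-fold was 16 under the block (6.75%, all features 1.67%). It was 3 of the 85 features left without the dimmest 50 percent (3.53%, all features 1.48%). With the threshold moved it was 74 at 1.2-fold and 1 at 2-fold, for which no share over all features was computed. The median change was -0.022 after cyclic loess and -0.0081 to 0.0043 with 1 array left out. The SDs of the replicate gaps moved by little under quantile and cyclic loess normalization, to between 0.177 and 0.181 for DMSO and between 0.116 and 0.117 for TCDD. No called change of a named feature turned its direction under any alternative run. The cause of these shifts was not tested.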
